A study of Mus musculus with 8 samples.

Results

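Genes that activate, inactivate, carry and sense thyroid hormone were examined in thyroid follicular cell organoids (TFCOs), 3-dimensional cultures of the epithelial cells that line thyroid follicles, and in thyroid and lung tissue of the mouse. The 9 genes were chosen by symbol: the deiodinases Dio1, Dio2 and Dio3, the transporters Slc16a10, Slc7a5 and Slc7a8, the receptors Thra and Thrb, and Crym, which binds the hormone in the cytosol. The deposited table of 16119 genes lists all 9, in capitals, as DIO1, DIO2, DIO3, SLC16A10, SLC7A5, SLC7A8, THRA, THRB and CRYM. All 9 were among the 14703 genes tested, those with normalized counts of 10 or above in 2 or more libraries.

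RNA was sequenced in 8 libraries of wild type C57BL/6 mice, 2 per group. TFCO lines mThy14 and mThy16 were each grown from the thyroid of 1 animal and sequenced at an early and at a late passage, so that both passage groups hold the same 2 lines. All TFCOs grew in basement membrane extract with forskolin (which raises cAMP), R-spondin, the TGFβ inhibitor A83-01, EGF and FGF10, with no further treatment, and the methods give female mice as their source. The other groups were 2 adult thyroid tissues and 2 lung tissues, lung serving as an unrelated tissue. The labels do not say whether a thyroid and a lung tissue of the same number come from 1 animal, and with 2 libraries or lines per group the p-values rest on a spread estimated across all genes and groups.

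Follicular cells release mostly thyroxine, a prohormone with little receptor activity of its own. Deiodinases remove iodine from it: removal from the outer ring gives the active hormone triiodothyronine, and removal from the inner ring ends activity. The hormone crosses membranes through transporters, binds nuclear receptors that act as transcription factors, and part of it is held in the cytosol by binding proteins. The thyroid itself is one of the tissues known for deiodinase activity, and follicular cells also need transporters to let hormone out into the blood.

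The deiodinases are selenoproteins: each reads a TGA codon, elsewhere a stop, as selenocysteine in its active site. The stretches around these codons are shown because they carry the chemistry that the 3 enzymes share, taken from GENCODE M21 transcripts (build GRCm38) 5′ to 3′, with the TGA in capitals and 30 bases on each side.
Dio1 (minus strand, chr4:107297700-107297702): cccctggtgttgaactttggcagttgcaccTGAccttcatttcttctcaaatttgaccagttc
Dio2 (minus strand, chr12:90729823-90729825): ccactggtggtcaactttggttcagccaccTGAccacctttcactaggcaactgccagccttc
Dio3 (plus strand, chr12:110279739-110279741): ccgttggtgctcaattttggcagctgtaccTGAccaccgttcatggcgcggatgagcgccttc
Over these 63 bases, Dio2 and Dio3 were identical at 65.1%, Dio1 and Dio3 at 58.7%, and Dio1 and Dio2 at 57.1%. None of the 3 transcripts shared a stretch of 50 bases with another gene, so their reads could be told apart at that length. Dio2 has a second annotated selenocysteine codon, number 263, near the end of the protein.

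The labels were checked against marker lists on the scale of normalized counts (reads per gene divided by 1 size factor per library). The summed level of 8 follicular cell markers was 22143 to 175340 in TFCOs, 1.56e+06 and 2.23e+06 in thyroid tissues 1 and 2 and 2233 to 3261 in lung, where Pax8 was at 0. Most of the thyroid tissue sums was Tg, the hormone precursor thyroglobulin. Without it the other 7 markers summed to 12611 to 48900 in TFCOs and to 30564 and 50283 in thyroid tissue, which overlap. Thyroid tissues also held RNA of other cells: 7 skeletal muscle markers summed to 52851 and 151899 there against 2030 to 2696 in TFCOs, 6 fibroblast markers to 25237 and 29602 against 91.6 to 247 (Lum at 0 in TFCOs), and 3 parathyroid markers to 9811 and 25996 against 7.92 to 27.1 (Pth at 0 in TFCOs). The libraries also split in a way that does not follow the groups: 44 genes were at 0 in thyroid tissue 2 and in lung while each of the other 5 libraries had at least 50, and 16 genes showed the opposite pattern. None of the 9 members was among those genes. TFCOs share their set only with thyroid tissue 1, so values against that tissue alone are given for each member, and tissue and set cannot be told apart between TFCOs and lung. Reads on genes ranged from 9755081 to 16904865 per library, of which 1077 to 8442 fell on the 9 members.

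Dio1, the type 1 deiodinase that can remove iodine from either ring (build GRCm38, chr4:107291465-107307169, 4 exons), set thyroid tissue apart from TFCOs. It had 415 normalized counts at early and 72.9 at late passage in line mThy14, 41.6 and 15.7 likewise in mThy16, 2471 for thyroid tissue 1 and 5990.0 for thyroid tissue 2, and 7.54 and 5.39 for the lung tissues. All 4 TFCO libraries lay below both thyroid tissues and above both lung tissues, and mThy14 lay above mThy16 at either passage. TFCOs held on average 3.22% of the level in thyroid tissue (136 ± 187, SD, n = 4 libraries, against 4231 ± 2488, n = 2). The log2 fold change was -5.82 ± 0.96 (standard error, SE; 95% interval -8.09 to -3.55, limma with Benjamini-Hochberg adjusted p = 0.0246), after the early and late value of a line had been averaged. With thyroid tissue 1 as the only comparator, within 1 set, the log2 difference was -5.18 and the adjusted p in limma was 0.124.

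Dio1 was the 1 member of 9 that passed the threshold of 0.05 between TFCOs and thyroid tissue, where 3.65% of all genes tested passed it and 3.05% did so in its direction. The call was also lost without late TFCOs of mThy14 (limma adjusted p = 0.0729) and without either lung tissue (0.0531 and 0.0546), which enters that fit through the shared estimate of the spread. None of the 8 follicular cell markers passed the test between TFCOs and thyroid tissue, and they lay on both sides. Tg (log2 fold change -5.87, limma adjusted p = 0.0620) and the iodide transporter Slc5a5 (-4.08, 0.105) were below both thyroid tissues in every TFCO library, the receptor Tshr (1.74, 0.327) was above both, and the other 5 overlapped. Within TFCOs the sum without Tg was 48900 early and 42755 late in mThy14 against 15127 early and 12611 late in mThy16, and Dio1 also lay higher in mThy14. The part of follicular cell content in the Dio1 result was not tested. In bulk RNA, fewer cells of a type and less RNA per cell cannot be told apart.

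Between thyroid and lung tissue, Dio1 gave the largest difference of the members. The thyroid tissues were 654 times as high on average, a log2 fold change of 9.02 (SE 0.96, adjusted p = 0.00551 in limma), the only call among the 9 members, where 6.05% of all genes were called and 2.89% in its direction. Within their shared set, thyroid tissue 2 exceeded the mean of the lung tissues by 9.66 on the log2 scale. TFCOs lay between the tissues, at a log2 fold change of 3.21 over lung (95% interval 0.94 to 5.48, limma adjusted p = 0.0512), counted from 9 and 8 reads in the lung libraries. That difference passed without thyroid tissue 1 (0.0458), thyroid tissue 2 (0.0460) or late mThy16 (0.0276, limma adjusted p).

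**Figure D1:**
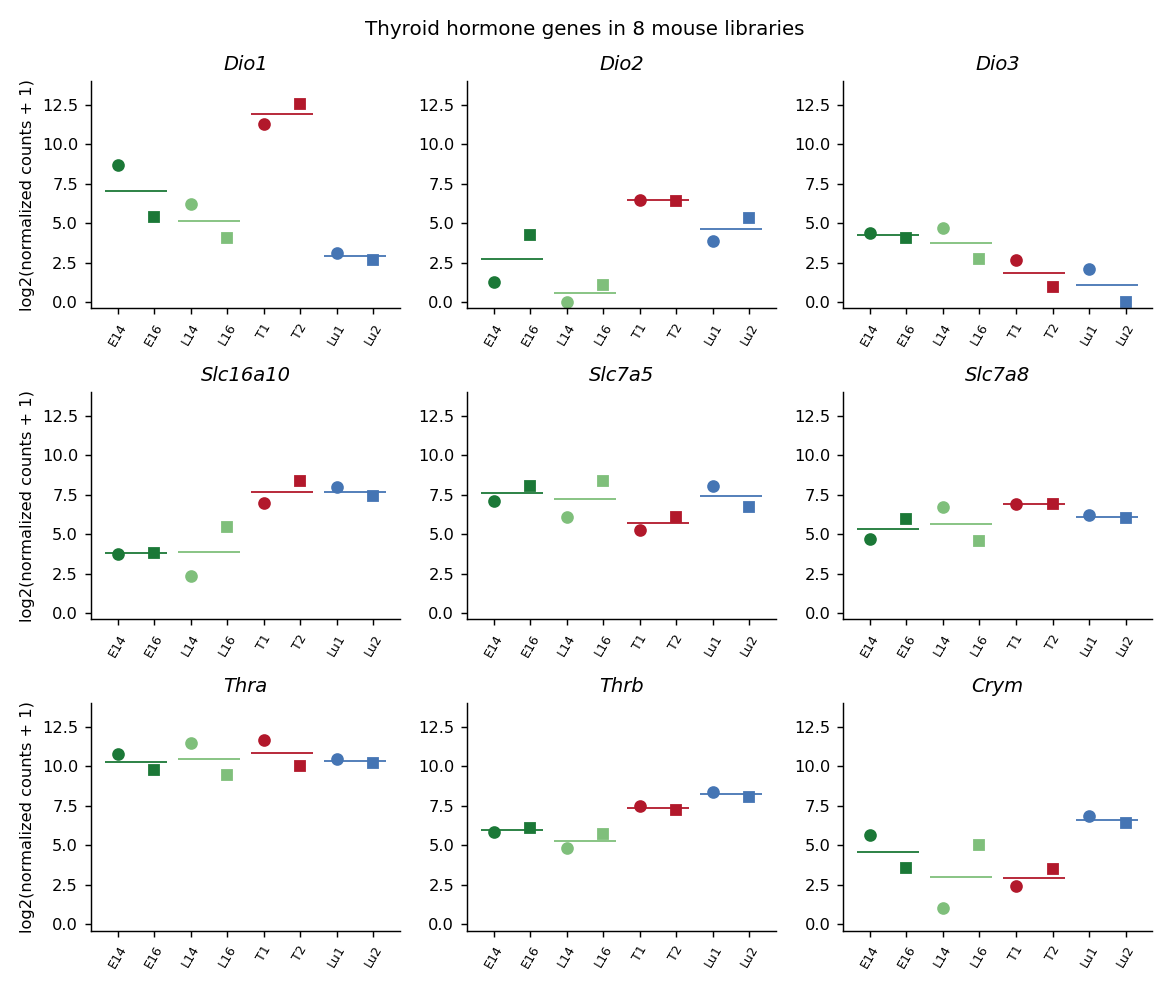
Levels of the 9 genes as log2(normalized counts + 1) on the vertical axis, 1 panel per gene, for early (E) and late (L) TFCOs of mThy14 and mThy16, thyroid tissues (T1, T2) and lung tissues (Lu1, Lu2). Points are libraries and lines are group means; Dio1 runs from 5.39 normalized counts in lung tissue 2 to 5990.0 in thyroid tissue 2, whereas the groups overlap for Thra.

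Dio2, the outer-ring deiodinase that makes triiodothyronine inside cells (chr12:90724552-90738438, 2 exons), was counted from 0 to 18 reads in TFCOs. Its normalized counts were 1.41 early and 0 late in mThy14, 17.8 early and 1.12 late in mThy16, 87.1 and 84.8 for the thyroid tissues, and 13.4 and 39.8 for the lung tissues. The TFCO values rest on 1 and 18 reads at early and on 0 and 1 reads at late passage, and 0 reads allow up to 3.12 normalized counts in late TFCOs of mThy14. All TFCO libraries lay below both thyroid tissues, and early mThy16 was the single TFCO library inside the range of lung. The log2 fold change against thyroid tissue was -4.80 (SE 1.08, adjusted p = 0.0639 in limma), which misses the threshold, and -4.82 against thyroid tissue 1 alone. Against thyroid tissue 2 alone it was -4.78. The difference passed without early mThy16 (limma adjusted p = 0.0309). With late TFCOs alone it was -5.90 with an adjusted p of 0.0343 in limma. Against lung it was -2.95 (limma adjusted p = 0.0806, and 0.0399 without early mThy16).

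The promoter region of Dio2 is shown because Dio2 is known as a gene that responds to cAMP and all TFCOs were grown with forskolin. Of the 9 members, 6 matched a promoter of 250 bases before to 50 after the start in the RefSeq table (build GRCm38.p6); Slc7a5, Thra and Crym did not. The cAMP response element TGACGTCA, which reads the same on both strands, occurred in 588 of 32851 promoters (1.79%), and among the members in that of Dio2 only, in capitals here. It begins 95 bases before the RefSeq start at position 90739038, which lies 600 bases upstream of the GENCODE start of the Dio2 gene given above.
Dio2 promoter, 68 bases (minus strand, chr12:90739096-90739163): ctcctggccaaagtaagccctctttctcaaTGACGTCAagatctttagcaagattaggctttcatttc
The thyroid hormone half-site AGGTCA, searched on both strands, occurred in 5340 of the promoters (16.3%), and among the members in 1 of the 2 promoters of Thrb, 184 bases before its start. Its direct repeat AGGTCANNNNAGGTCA occurred in 5 promoters (0.0152%), none of them of a member. A match of letters does not show that a factor binds.

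Dio3, the inner-ring deiodinase that inactivates thyroid hormone and is known for its activity in placenta and fetal tissue (chr12:110279068-110281097, 1 exon), had low counts throughout. It had 19.7 normalized counts early and 25.0 late in mThy14, 15.8 early and 5.59 late in mThy16, 5.44 and 0.922 for the thyroid tissues, and 3.35 and 0 for the lung tissues. These come from 5 to 24 reads in TFCOs, 5 and 1 in thyroid tissue and 4 and 0 in lung. Every TFCO library lay above every tissue library, but late mThy16 and thyroid tissue 1 had 5 reads each and were put in order by their size factors alone. The log2 fold change was 2.15 over thyroid tissue (95% interval -0.71 to 5.01, limma adjusted p = 0.370), with 1.28 against thyroid tissue 1 alone, and 2.91 over lung (limma adjusted p = 0.108), and neither passed, except that the second did without thyroid tissue 1 (0.0441) or thyroid tissue 2 (0.0460). Dio1 and Dio2 thus lay below thyroid tissue in every TFCO library, and Dio3 lay above it except for that pair of equal read numbers.

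Slc16a10, a transporter of aromatic amino acids that also carries triiodothyronine (chr10:40033532-40142258, 6 exons), was the member transporter with the largest difference between TFCOs and either tissue. Its normalized counts were 12.6 early and 4.16 late in mThy14, 12.9 early and 42.5 late in mThy16, 123 and 325 for the thyroid tissues, and 254 and 169 for the lung tissues. The TFCO values rest on 9 and 4 reads in mThy14 and on 13 and 38 reads in mThy16. TFCOs lay below every tissue library, while the ranges of thyroid and lung tissue overlapped. Against lung the log2 fold change was -3.86 (SE 0.84, adjusted p = 0.0232 in limma), and lung was 11.7 times as high. The call was lost without lung tissue 1 (limma adjusted p = 0.179) or lung tissue 2 (0.138). Against thyroid tissue it was of the same size, -3.81 (standard error 0.84, limma adjusted p = 0.0601), and it passed without late mThy16 (limma adjusted p = 0.0352). It was -3.11 against thyroid tissue 1 alone and -4.50 against thyroid tissue 2 alone.

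Slc7a5, the large neutral amino acid transporter LAT1, which also carries thyroid hormone (chr8:121881150-121907694, 10 exons), showed the opposite order against thyroid tissue. It had 136 normalized counts early and 67.7 late in mThy14, 266 early and 329.8 late in mThy16, 38.1 and 67.3 for the thyroid tissues, and 266 and 107 for the lung tissues. All TFCO libraries lay above both thyroid tissues, late mThy14 by less than 1 normalized count, and mThy16 lay above mThy14 at either passage. The log2 fold change over thyroid tissue was 1.72 (95% interval -0.18 to 3.61, limma adjusted p = 0.306), and 2.12 over thyroid tissue 1 alone. TFCOs and lung overlapped (log2 difference 0.00, 95% interval -1.90 to 1.89).

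Slc7a8, the related transporter LAT2 (chr14:54722209-54781946, 11 exons), differed less between the libraries of a tissue than the other 2 member transporters. Its normalized counts were 25.3 early and 104 late in mThy14, 61.4 early and 22.4 late in mThy16, 119.7 and 119.9 for the thyroid tissues, and 72.0 and 64.7 for the lung tissues. TFCOs lay below thyroid tissue in all 4 libraries and on both sides of lung. The log2 fold change was -1.43 against thyroid tissue (95% interval -2.97 to 0.10, limma adjusted p = 0.295), as against thyroid tissue 1 alone, and -0.63 against lung (limma adjusted p = 0.476), which quantile normalization turned to 0.34.

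Thra, the receptor TRα (chr11:98740638-98769006, 10 exons), was abundant in every library, and its groups overlapped in all comparisons. It had 1763 normalized counts early and 2911 late in mThy14, 868 early and 704 late in mThy16, 3320.3 and 1035 for the thyroid tissues, and 1411 and 1210.0 for the lung tissues. Both TFCO libraries of mThy14 lay above both of mThy16. Against thyroid tissue the log2 fold change was -0.48 (95% interval -2.08 to 1.13, limma adjusted p = 0.703), with -1.32 against thyroid tissue 1 and 0.36 against thyroid tissue 2. Against lung it was 0.03 (95% interval -1.58 to 1.63). The last 1075 bases of Thra lie opposite to Nr1d1, a clock gene read from the other strand (chr11:98767932-98769006). Nr1d1 had 404 to 1725 normalized counts in TFCOs, 1246 and 1940 in thyroid tissue and 2488 and 3565 in lung. Whether the counting used the strand is not given in the sources used here, so reads from that overlap cannot be assigned to one gene with certainty.

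Thrb, the receptor TRβ (chr14:17660261-18038090, 7 exons), was lower in TFCOs than in lung. Its normalized counts were 57.6 early and 28.1 late in mThy14, 68.3 early and 51.4 late in mThy16, 181 and 150.3 for the thyroid tissues, and 339 and 266 for the lung tissues. TFCOs, thyroid tissue and lung tissue did not overlap and lay in that order from low to high, with late mThy14 the lowest library. Against lung the log2 fold change was -2.60 (SE 0.54, adjusted p = 0.0209 in limma), and lung was 5.89 times as high. The call was lost without lung tissue 1 (limma adjusted p = 0.188) or lung tissue 2 (0.150) and after quantile normalization (0.0727). Against thyroid tissue it was -1.73 (95% interval -3.01 to -0.45, limma adjusted p = 0.153) and -1.86 against thyroid tissue 1 alone, and thyroid and lung tissue did not differ past the threshold (log2 fold change -0.86, limma adjusted p = 0.385). Of the 50-base stretches of the Thrb transcript, 0.26% also occur in transcripts of other genes.

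Crym, the triiodothyronine-binding protein µ-crystallin (chr7:120186380-120202111, 8 exons), had its highest values in lung. It had 49.2 normalized counts early and 1.04 late in mThy14, 10.9 early and 31.3 late in mThy16, 4.35 and 10.1 for the thyroid tissues, and 113 and 84.3 for the lung tissues. The value of late mThy14 was a single read and those of thyroid tissue were 4 and 11 reads, and TFCOs and thyroid tissue overlapped (log2 fold change 0.87, with 1.4 against thyroid tissue 1 alone). Both lung tissues lay above every other library, with log2 fold changes of -2.81 for TFCOs against lung (limma adjusted p = 0.0630, and 0.0175, 0.0167 and 0.0469 without thyroid tissue 1, thyroid tissue 2 and late mThy16) and -3.67 for thyroid against lung tissue (SE 0.92, adjusted p = 0.0652 in limma). Without thyroid tissue 2 the second of these was -4.20, with 1 thyroid tissue left in the fit.

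**Figure D2:**
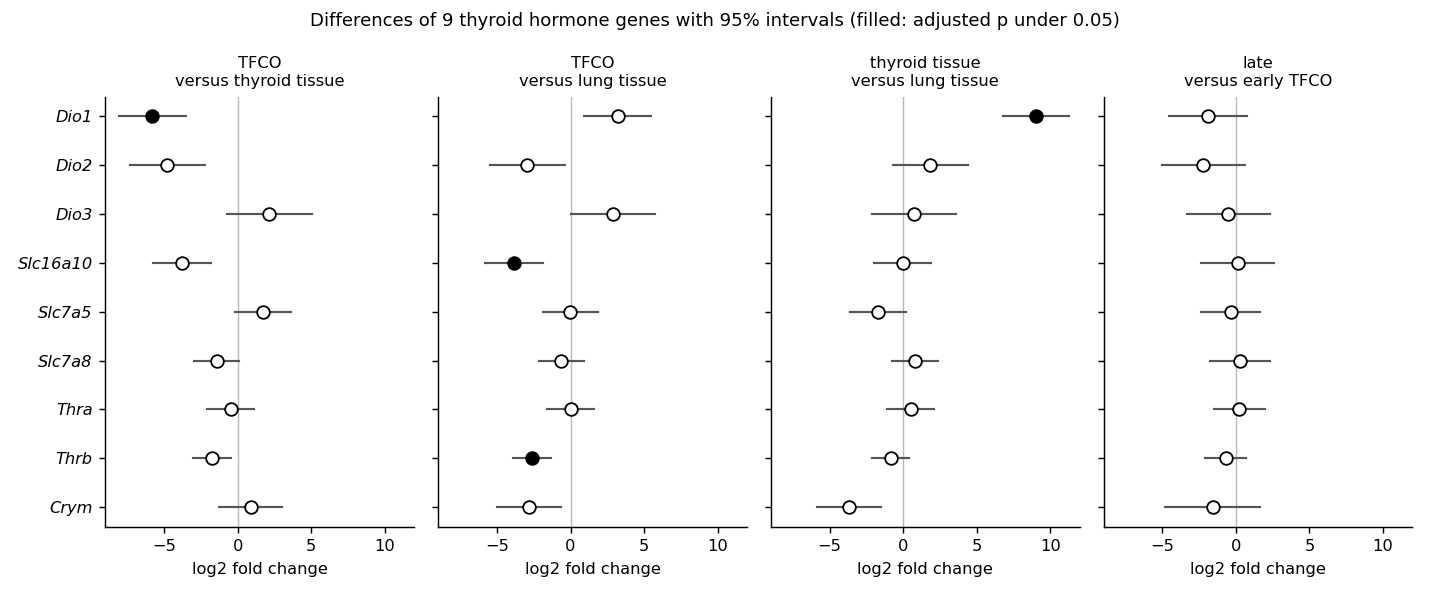
Log2 fold changes of the 9 genes (horizontal axis) with 95% intervals from limma in 4 comparisons, filled where the adjusted p was under 0.05. Dio1 is filled against thyroid tissue (-5.82) and between the tissues (9.02), and Slc16a10 (-3.86) and Thrb (-2.60) are filled against lung.

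Counted over the 9 members, every TFCO library lay below both thyroid tissues for 5 (Dio1, Dio2, Slc16a10, Slc7a8 and Thrb), where 17.3% of all genes tested did, and above both for 2 (Dio3, by equal read numbers in 1 pair, and Slc7a5), where 17.2% did. The median log2 fold change was -1.43 over the members and 0.05 over all genes. Against lung, 2 members were called, both lower in TFCOs, where 23.4% of all genes were called and 13.5% were lower. TFCOs lay below lung for 3 members (33.3% of all genes) and above it for 2 (34.4%). The share of members called against lung lay near that of all genes. The comparisons with thyroid and with lung use the same TFCO libraries and are not independent.

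Markers of other cells differed between the groups as well, most of them in the direction of the members that lay low in TFCOs. Of the markers of cells other than follicular cells, 6 of 7 for skeletal muscle, 6 of 6 for fibroblasts, 4 of 5 for endothelium, 3 of 4 for C cells, 2 of 3 for parathyroid, 3 of 5 for adipocytes and 2 of 5 for leukocytes were called lower in TFCOs than in thyroid tissue. In the lung epithelium list, 2 of 7 were called higher in TFCOs than in thyroid tissue and 0 lower: the surfactant proteins Sftpb (log2 fold change 7.18, limma adjusted p = 0.00177) and Sftpd (8.65, limma adjusted p = 0.00592). Over the 7, 5 had a positive log2 fold change and 2 a negative one, Ager (-1.24) and Scgb1a1 (-0.66). In lung, 5 endothelial markers summed to 24917 and 42774, against 186 to 529 in TFCOs, and 5 leukocyte markers to 3035 and 4430 against 54.8 to 88.3. The lung epithelium markers summed to 551737 and 1129770 in lung and to 9443 to 45039 in TFCOs, a range that held both thyroid tissues (20446 and 15172). Most of the thyroid sums was Ager, at 20265 and 15011, while Sftpb held 28177 of the highest TFCO sum. The overlap of sums thus does not show that the same markers were alike. The part of these cells in the values of Dio1, Dio2, Slc16a10 and Thrb was not tested.

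Members were ranked within a group only per kilobase of their longest coding transcript, a scale that holds for reads spread along transcripts, as the methods describe, and not for the end-tagged libraries that the labels describe. In TFCOs Thra came first at 637 normalized counts per kilobase, followed by Dio1 at 80.6 and Slc7a5 at 56.9, and Dio2 came last at 0.875. In thyroid tissue Dio1 came first at 2503, above Thra at 888, whereas Slc16a10 followed at 41.5 and Dio3 was last at 1.57. In lung Thra was first at 534 and Crym second at 71.3, with Slc7a5 at 53.1 and Thrb at 48.8 close together and Dio3 last at 0.825. Per kilobase Thra exceeded Thrb in every library, and ranks below the first places rest on values that overlapped between libraries.

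Comparing late with early passage, limma called 0 of 14703 genes at the threshold, with 166 at an unadjusted p under 0.05 (1.13%), none of them a member. Called genes thus made up 0% of those tested, and 2 genes passed without late mThy16. Dio1 differed by -2.49 on the log2 scale in mThy14 and by -1.36 in mThy16, late minus early, but early mThy16 lay below late mThy14, so the passage groups overlapped (limma log2 fold change -1.92, 95% interval -4.58 to 0.73). With the line as a replicate block, since early and late libraries come from the same animal, the unadjusted p of Dio1 in limma was 0.0219 and the adjusted p was 1. Dio2 differed by -1.27 and -3.15 and Thrb by -1.01 and -0.40, and these were the 2 members for which both late libraries lay below both early ones, where 12.4% of all genes tested did so. For Dio2 that order is not shown by the reads, since early mThy14 and late mThy16 had 1 read each and differ by their size factors alone.

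The lines went opposite ways for the other 6 members. Crym had 35 reads early and 1 late in mThy14, and 11 early and 28 late in mThy16, log2 differences of -4.62 and 1.44. Slc16a10 differed by -1.40 and 1.65, and Slc7a8 by 2.00 and -1.42. These 3 of 9 differed by 1 or more on the log2 scale in each line in opposite directions, where 3.52% of all genes tested did. Dio3 differed by 0.33 and -1.35, Slc7a5 by -1.0 and 0.31, and Thra by 0.72 and -0.30, and lines of opposite direction made up 46.6% of all genes. With 1 library per line and passage, none of these line differences has a replicate.

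**Figure D3:**
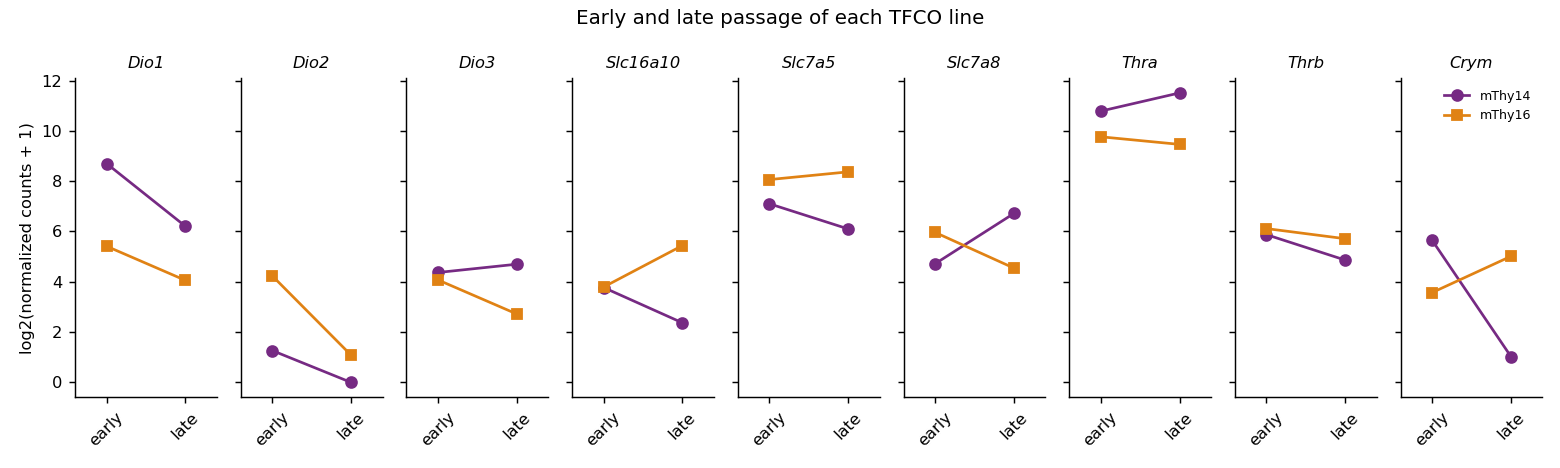
Early and late values of the 9 genes in each TFCO line as log2(normalized counts + 1) on the vertical axis, 1 library per point, with mThy14 as circles and mThy16 as squares. Dio1 slopes downward in both lines, whereas Slc16a10, Slc7a8 and Crym slope in opposite directions.

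The lines also differed from each other at a given passage. As mThy14 minus mThy16 on the log2 scale, Dio1 differed by 3.29 at early and 2.15 at late passage, and Thra by 1.02 and 2.05. Slc7a5 differed by -0.96 and -2.27 and Thrb by -0.24 and -0.85, so for these 4 genes the same line had the higher value at both passages. Dio3 (0.30 and 1.98) and Slc16a10 (-0.02 and -3.07) also kept their sign, but their early values rest on 9 to 16 reads. Slc7a8 (-1.25 and 2.17) and Crym (2.08 and -3.98) changed sign. The share of all genes with the same line higher at both passages was not counted. Dio2 differed by -2.97 at early passage, and its late value rests on 0 reads against 1. Each line comes from 1 animal, so line and animal cannot be told apart.

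Among 10 other genes that carry thyroid hormone or assist its carriers, 9 were listed and 8 tested. For this list and those below, 3.65% of all genes tested were called between TFCOs and thyroid tissue and 23.4% between TFCOs and lung. Slco2b1, an organic anion transporter, was called lower in TFCOs than in lung (-4.57, limma adjusted p = 0.0136). Of the 8, 0 were called higher, though 5 had a positive log2 fold change and 3 a negative one. None of the 8 was called between TFCOs and thyroid tissue, where the median log2 fold change was 1.12, with Slco2b1 at -3.71 (limma adjusted p = 0.0620). Slc3a2, the heavy chain that Slc7a5, Slc7a8 and related transporters need, had 2265 to 3889 normalized counts in TFCOs, 1245 and 2480.1 in thyroid tissue and 2801 and 2998 in lung.

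Of 10 genes for making and degrading deiodinases, 0 were called between TFCOs and thyroid tissue, with a median log2 fold change of 0.03. Against lung, where 23.4% of all genes tested were called, Sephs2, which makes the selenium donor, was higher in TFCOs (1.93, limma adjusted p = 0.0212). Sepsecs, which makes selenocysteine on its transfer RNA, was lower (-1.79, limma adjusted p = 0.0357). Of 16 receptor partners and coregulators, 0 were called between TFCOs and thyroid tissue. Against lung, the corepressor subunit Hdac3 (2.35), the mediator subunit Med1 (1.61) and the coactivator Carm1 (1.41) were higher and the receptor partner Rxra (-1.35) was lower, with limma adjusted p-values from 0.0133 to 0.0433. Gps2, another corepressor subunit, followed the 2 sets of libraries, at 9.80 normalized counts in thyroid tissue 1 but 402 in thyroid tissue 2. Med1 also split between these tissues, at 1634 normalized counts in thyroid tissue 1, inside the range of TFCOs (1597 to 1902), but 779 in thyroid tissue 2. Hdac3 (1576 and 779) and Carm1 (1151 and 691) were likewise higher in thyroid tissue 1 than in thyroid tissue 2, though below every TFCO library in both. Rxra was at 1025 and 1317 in these tissues.

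Of 13 genes known to respond to thyroid hormone, 1 was called between TFCOs and thyroid tissue, Atp2a1 (-5.22, limma adjusted p = 0.0142), the calcium pump of fast muscle fibres, and the median over the list was -1.07. Thrsp, a regulator of fat synthesis, had 29.1 to 496 normalized counts in TFCOs and 2401 and 3276 in thyroid tissue (-3.71, limma adjusted p = 0.0763). Hr, a corepressor induced by the hormone, had 22.9 to 125 in TFCOs and 357 and 359 in thyroid tissue (-2.51, limma adjusted p = 0.0914). Against lung, where 23.4% of all genes tested were called, Ucp3 (4.84) and Atp2a1 (2.62) were higher in TFCOs. Nrgn (-6.84), Dbp (-2.98), Cpt1a (-2.76) and Hr (-2.16) were lower. Limma adjusted p-values of these genes ran from 0.00395 to 0.0498. Of these, Cpt1a followed the sets of libraries, at 398 normalized counts in thyroid tissue 1 but 1501 in thyroid tissue 2, with 1499 and 1972 in lung. Atp2a1 is itself a muscle gene, and skeletal muscle markers moved the same way between TFCOs and thyroid tissue; their part in it was not tested.

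Of 10 binding and clearance genes, 8 were listed and 3 tested. Sult1a1, a sulfotransferase that inactivates iodothyronines, was lower in TFCOs than in lung (-3.39, limma adjusted p = 0.00668), and 0 were called against thyroid tissue. Of the 2 subunits of integrin αvβ3, a cell surface binding site of the hormone, Itgb3 was lower in TFCOs than in lung (-6.64, limma adjusted p = 0.0432). Itgb3 also followed the 2 sets of libraries, at 0 normalized counts in thyroid tissue 1 but 66.4 in thyroid tissue 2, with 608 and 385 in lung. Between late and early TFCOs, 0 genes of these lists were called.

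**Figure D4:**
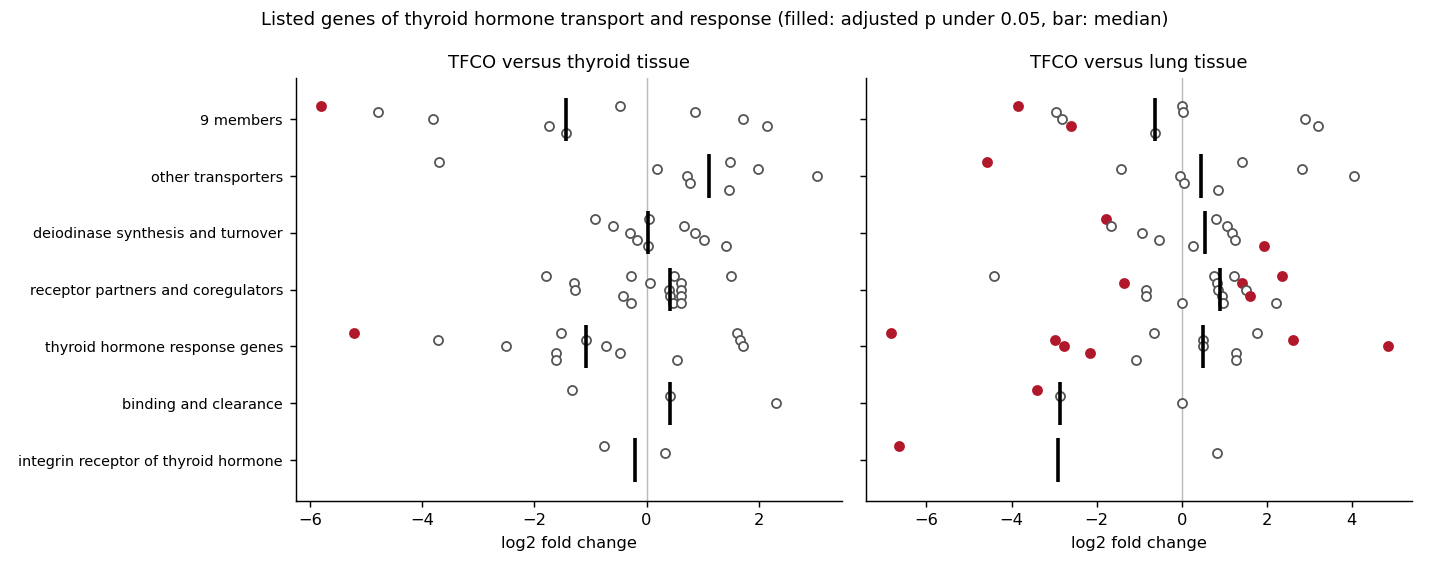
Log2 fold changes (horizontal axis) of the 9 members and of 6 lists of related genes for TFCOs against thyroid and against lung tissue, 1 point per gene, with a bar at each list's median and filled points at an adjusted p under 0.05. Against thyroid tissue 1 member (Dio1) and 1 response gene (Atp2a1) are filled.

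For each member, the tested genes whose log2 levels followed it most closely over the 8 libraries were read as a description. The points share libraries, groups and lines, so r also carries the differences between tissues. For Dio1 they were Scn4a (Pearson's r = 0.986) and Cs (0.981), of which Scn4a encodes the sodium channel of skeletal muscle. For Dio2 they were B3galt1 (0.966) and Apobec2 (0.957), for Dio3 Hes1 (0.982) and B4galnt1 (0.974), and for Slc16a10 Oxct1 (0.986) and Pkib (0.984). Slc7a5 was followed by Anxa1 (0.977) and F5 (0.969), Slc7a8 by Cisd3 (0.960) and Helq (0.959), and Thra by Ctdsp1 (0.969) and Ppp2r5a (0.959). Thrb was followed by Spi1 (0.996), a transcription factor of white blood cells, and by the sodium channel subunit Scnn1a (0.992). Crym was followed by Phldb2 (0.975) and Mab21l4 (0.958), and Phldb2 shared the low value of late mThy14 among TFCOs, with 67.7 normalized counts against 652 to 975 in the other 3.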

How the data were processed

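RNA was measured in 8 mouse libraries, 2 each of early TFCOs, late TFCOs, thyroid tissue and lung tissue, grouped by sample title. The authors deposited 1 table of normalized signal per gene, read counts divided by a size factor per library, made with DESeq2 by the authors. The submitters' processing notes name BWA 0.6.2-r126 and the builds hg38 and mm10. The methods name a stranded polyA kit with paired reads and the labels an adapted CEL-Seq protocol, which tags transcript ends. The annotation is not given in the sources used here. In every library, 100% of values up to 100 reads were whole multiples of 1 step (within 0.01 reads), so depth could be read from them: 9755081 to 16904865 reads on genes. Intervals and floors (3 reads) of single values cover counting error only.

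Values were analysed as log2(normalized counts + 1), which understates changes of low genes, with limma 3.58.1 in R 4.3.3 (mean-variance trend, Benjamini-Hochberg adjustment over the 14703 genes that reached 10 in 2 or more libraries, threshold 0.05, intervals at 95%). Passages of a line were averaged for comparisons with tissue, giving 2 lines, 2 thyroid and 2 lung tissues in 1 fit. Early and late TFCOs were compared in 1 fit of 4 groups. Lines pair early and late libraries, since both come from 1 animal (r = 0.477 between their deviations across genes). For tissue numbers, the deviations of thyroid and lung had r = -0.07. That value cannot settle whether a number marks 1 animal, since thyroid tissues 1 and 2 lie in different sets of libraries. The main fit did not pair thyroid with lung. The procedure was run on simulated data with 200 changed genes and independent libraries. That run cannot show how the procedure handles shared lines, the sets of libraries or changes in low genes. All 9 members were named. From the lists of related genes, those called with the largest change or else the highest level were named, with Thrsp, Hr, Slc3a2, Gps2 and Phldb2 named after their values were seen. 1 gene of the transporter list is not reported here. The members and lists were chosen with earlier results of these data known. Symbols of 15883 genes matched GENCODE M21 and 236 did not. Alternatives were another pseudocount, filter and scaling, no trend, the groups and passages in the fit, a replicate block, each library left out, and limma's voom, chosen after seeing the data.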

Additional observations from a re-analysis of the deposited data

Results flagged for a closer look

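For 6 of the 9 genes, late minus early TFCOs went one way in mThy14 and the other way in mThy16, as did 46.6% of all genes tested. The difference between the lines in that step (mThy14 minus mThy16, log2) was -6.06 for Crym, 3.42 for Slc7a8, -3.05 for Slc16a10, 1.68 for Dio3, -1.31 for Slc7a5 and 1.03 for Thra. None of these differences was tested, as each line had 1 library per passage. Crym, Dio3 and Slc16a10 rest on 1 to 38 reads per TFCO library. No group held 4 samples or more, so single libraries were not checked for standing apart within a group.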

How the results depend on the processing

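Of 322 values of single members under alternatives that keep all libraries, 292 kept direction and side of the threshold, 15 newly passed, 5 no longer passed and 10 changed sign, all 10 at differences that had not passed. In TFCOs against lung these were Slc7a5 with a pseudocount of 5 (0.0024), quantile normalization (0.86), early TFCOs alone (0.17) and voom (0.084), Slc7a8 with quantile normalization (0.34), and Thra with quantile normalization (-0.19), equal totals (-0.11) and early TFCOs alone (-0.078). In thyroid against lung they were Slc16a10 with quantile normalization (0.31) and voom (0.011). Quantile normalization moved the median of all genes from 0.05 to 0.32 for TFCOs against lung, from 0.05 to 0.17 against thyroid tissue and from 0.03 to 0.14 for thyroid against lung, and Thrb against lung then had an adjusted p of 0.0727 in limma. The causes of these changes were not tested. The Dio1 call against thyroid tissue was lost without a trend (limma adjusted p = 0.0512), with the 2 groups alone (0.0550) and with early TFCOs alone (0.0633), and held with voom (0.0383). Slc16a10 against lung lost its call with late TFCOs alone (0.0539).

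Genes called between TFCOs and thyroid tissue numbered 536, but 124 with the 2 groups alone, 1322 with TFCO libraries as separate samples and 232 with voom, and members called numbered 1, but 0 without a trend and with the 2 groups alone, 2 with late TFCOs alone and 3 with separate libraries. Against lung 3435 genes became 6979 with the 2 groups alone and 6625 with separate libraries, and 2 members became 1 with quantile normalization, 5 with the 2 groups alone and 4 with separate libraries. Between thyroid and lung 889 genes became 277 with the 2 groups alone, and 1 member became 2 with a pseudocount of 5 and without a trend, where Crym passed as well. Separate libraries treat the passages of a line as independent.

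Leaving out each library in turn gave 143 (without thyroid tissue 2) to 4026 genes (without thyroid tissue 1) and 0 to 3 members for TFCOs against thyroid tissue, 296 (without lung tissue 2) to 6981 genes (without thyroid tissue 2) and 0 to 5 members against lung, 59 (without lung tissue 1) to 4288 genes (without thyroid tissue 2) and 1 to 2 members between the tissues, and 0 to 2 genes (2 without late mThy16) and 0 members between passages. A lone tissue is then assumed to vary like the other groups. Among the single members, 22 of 288 such values changed sign. In TFCOs against thyroid tissue, Crym ranged from -0.29 to 2.02 and Thra from -1.32 to 0.36, and in TFCOs against lung Slc7a5 ranged from -0.65 to 0.65 and Thra from -0.15 to 0.21. In thyroid against lung, Dio3 ranged from -0.31 to 1.82, Slc16a10 from -0.74 to 0.65 and Thra from -0.34 to 1.35. Between passages, Dio3 ranged from -1.50 to 0.48, Slc16a10 from -1.41 to 1.66, Slc7a5 from -1.48 to 0.79, Slc7a8 from -0.79 to 1.38, Thra from -0.81 to 1.23 and Crym from -3.58 to 0.40. Adding the line as a replicate block left 0 genes called between passages, and with the tissue number as a replicate block 756 genes and 1 member passed between thyroid and lung. No call of a member changed under either block. Planned count tests with edgeR and DESeq2 on whole reads were not run, and voom on those reads took their place. Depth limits Dio2, Dio3, Crym and Slc16a10, all at 38 reads or fewer in every TFCO library.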
